A study of Mus musculus with 7 samples.

Results

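The nuclear-encoded subunits of the mitochondrial respiratory chain and ATP synthase were followed in nasal tissue of mice exposed to diesel exhaust particles (DEPs). Members were all genes whose symbol, reached through the transcript accession of a probe, begins with Ndufa, Ndufb, Ndufc, Ndufs or Ndufv (complex I), Uqcr (complex III), Cox4, Cox5, Cox6, Cox7 or Cox8 (complex IV) or Atp5 (complex V). The rule uses names only and no measured value. It returned 89 of the 32095 genes or transcripts on the array, with 118 of its 39429 probes, and 87 of these members were among the 20664 genes tested. *Cox7b2* and *Cox8c*, isoforms known from testis, were not tested, since neither lay well above background on at least 3 of the 7 arrays in either channel. Of the 89 genes, 81 encode subunits or subunit isoforms and 8 (the *Ndufaf* genes) encode assembly factors of complex I, which help to build the complex but are not part of it.

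The study used 32 female BALB/c mice. Mice of the exposed groups breathed DEPs at 100 µg/m3 for 1 hour on 5 days a week, delivered by an ultrasonic nebulizer in a closed chamber, for 4 or for 8 weeks, and the labels give an age of 6 weeks for both channels of every array. The control mice, which received saline according to the study's methods, were not exposed to DEPs, and the labels do not say for how long they were kept. RNA came from whole nasal cavity tissue, taken as septum and turbinates according to the methods, and how many mice contributed to each array is not stated in the sources used here. Each array held DEP RNA labelled with Cy5 and control RNA labelled with Cy3, with 4 arrays at 4 weeks (on 1 slide) and 3 arrays at 8 weeks (on another). Dyes were not swapped, so a dye preference of a probe and an effect of DEP cannot be told apart, and neither can slide and exposure time. The labels call the arrays biological replicates. All values below are log2 ratios of DEP over control unless stated otherwise, so that -1 would be a 2-fold lower signal in DEP tissue.

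The respiratory chain sits in the inner mitochondrial membrane. Complexes I, III and IV pass electrons from NADH to oxygen and pump protons as they do so, and complex V lets the protons flow back to make ATP. Most subunits are encoded in the nucleus, as all members here are, while a small set of core subunits of complexes I, III, IV and V comes from mitochondrial DNA. In the nose, mitochondria are abundant in muscle fibres, in ciliated cells and in the dendritic knobs of olfactory neurons.

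The members were among the brighter genes of the array, with a mean log2 intensity over both channels of 7.26 to 15.3 (median 12.9) against a median of 7.83 over all genes tested. No spot was saturated, and 18601 to 25069 probes in the DEP channel and 16985 to 26927 in the control channel were well above background on an array. The log2 ratios of all genes correlated across genes at 0.71 to 0.876 between arrays of 8 weeks, at 0.439 to 0.491 between arrays of 4 weeks, and at 0.087 to 0.286 between the times. The SD of a member over its arrays had a median of 0.093 at 4 weeks and of 0.117 at 8 weeks. Mature olfactory neuron markers (all 9 of the list) and fast skeletal muscle markers (all 12) were among the genes tested, so the tissue held both.

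After 4 weeks, respiratory chain genes were called in both directions, and less often than all genes tested. With limma at an adjusted p of at most 0.05, 9 of 87 were higher and 13 were lower in DEP tissue (10.3% and 14.9%), while 65 did not pass. Over all genes tested, 21.7% were called higher and 16.4% lower. A set of 1294 other genes of like brightness had a mean log2 intensity of 11.4 to 13.42, the quartiles of the members. Of these, 27.9% were called higher and 24.9% lower. The median of the members was -0.07 (all genes 0.00), and their medians on the 4 arrays were -0.03, -0.05, -0.08 and -0.05. The count of higher members fell to 5 when replicate 2, 3 or 4 of 4 weeks was left out, and the count of lower members fell to 8, 7 and 8 without replicates 2, 3 and 4. In these fits 16.2%, 17.3% and 17.5% of all genes were called higher and 11.2%, 12.3% and 12.1% lower. At like brightness 22.4%, 22.6% and 23.3% were higher and 15.4%, 18.4% and 16.7% lower. Centring each array on its median in place of loess gave 1 higher and 23 lower members (26.4% lower). With that centring 21% of all genes and 33.8% of the genes of like brightness were lower.

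After 8 weeks, the shift was mostly downward. Of the 87 members, 32 were lower, 3 were higher and 52 did not pass (36.8% lower, 3.45% higher), where 16.9% of all genes were called lower and 20.4% higher. The higher ones were *Cox4i2*, *Ndufb10* and *Atp5g2*, the last by its brighter probe, while its other probe was called lower. The median was -0.17 (all genes 0.01), with array medians of -0.18, -0.13 and -0.15. All 3 arrays lay below 0 for 54 members (62.1%), which held for 31.6% of all genes, and all 3 lay above 0 for 7 members. Of the 20664 genes tested, 7295 had all 3 arrays above 0. Among the genes of like brightness 28.4% were called lower and 26.5% higher, with a median of -0.01. The members' share of lower calls was thus 36.8% against 28.4% at like brightness and their share of higher calls 3.45% against 26.5%, given here as a description with no test of the list. No member passed the study's rule of an unadjusted p of at most 0.01 with a 2-fold change at either time, a rule that called 2.1% of all genes higher and 0.847% lower at 8 weeks 0.934% and 0.368% at 4 weeks, and 1.9% and 1.16% for the difference between the times, where no member passed either. The excess of lower calls over genes of like brightness was kept when any single 4-week array was left out. The members' share was then 32.2% to 46%, against 26.7% to 30.3% at like brightness. It was not kept for every 8-week array left out. Without replicate 2 of 8 weeks 16 members were lower (18.4%, against 9.48% of all genes and 19.8% at like brightness). Without replicate 1 the share was 27.6% against 27.4% at like brightness. Without replicate 3 it was 25.3% against 21.5%. The members' median was -0.14, -0.18 and -0.15 without replicates 1, 2 and 3. Their share of higher calls was 2.3%, 2.3% and 3.45%, against 24.5%, 19.2% and 22.6% at like brightness. Median centring raised the lower count to 69 (79.3%), with 33.3% of all genes and 51% at like brightness.

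**Figure D1:**
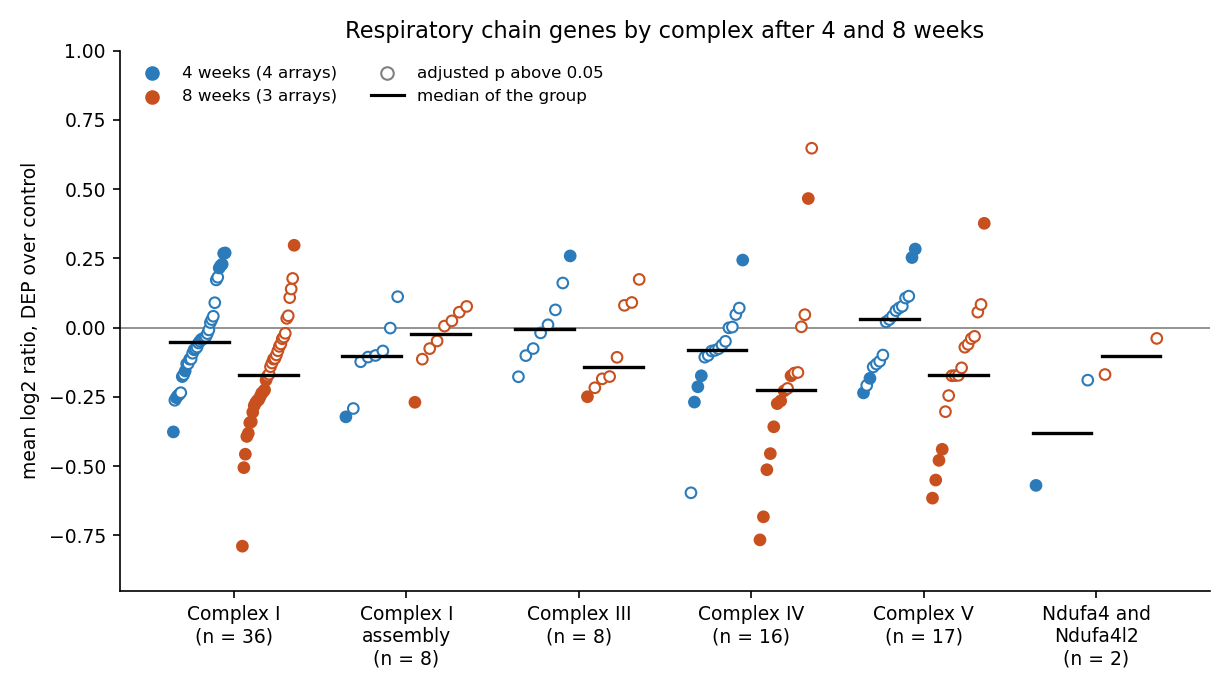
Mean log2 ratio of DEP over control for each tested member at 4 weeks and at 8 weeks, grouped by complex, with filled points for an adjusted p of at most 0.05 and a line at the median of each group. The medians at 8 weeks are -0.17 for complex I, -0.14 for complex III, -0.22 for complex IV and -0.17 for complex V, against -0.05, -0.00, -0.08 and 0.03 at 4 weeks.

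The change from 4 to 8 weeks was tested directly as the difference of the log2 ratios. It was lower for 17 members and higher for 1 (19.5% and 1.15%), where 16.1% of all genes were called lower and 14.8% higher. Among the genes of like brightness 27% were lower and 24.3% higher, so the members' share of lower calls lay below theirs. The median difference was -0.09. For 28 members (32.2%) every 8-week array lay below every 4-week array, and for 4 members (4.6%: *Atp5e*, *Ndufa4l2*, *Ndufab1* and *Ndufaf2*) every 8-week array lay above, against 21.2% and 21% of all genes. Complex V held the highest share of members with such separated arrays on the low side (8 of 17, 47.1%), followed by complex IV (6 of 16, 37.5%), complex I (11 of 36, 30.6%) and complex III (2 of 8, 25%), an order that was not tested. The count of 17 fell to 10 without replicate 2 of 8 weeks (11.5%, against 9.94% of all genes and 19.4% at like brightness) and to 11 without replicate 3 (12.6%, against 11.9% and 20.7%). The count of 1 rose to 3 without replicate 1 of 8 weeks and to 2 without replicate 2, with 13.2% and 8.78% of all genes higher.

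**Figure D2:**
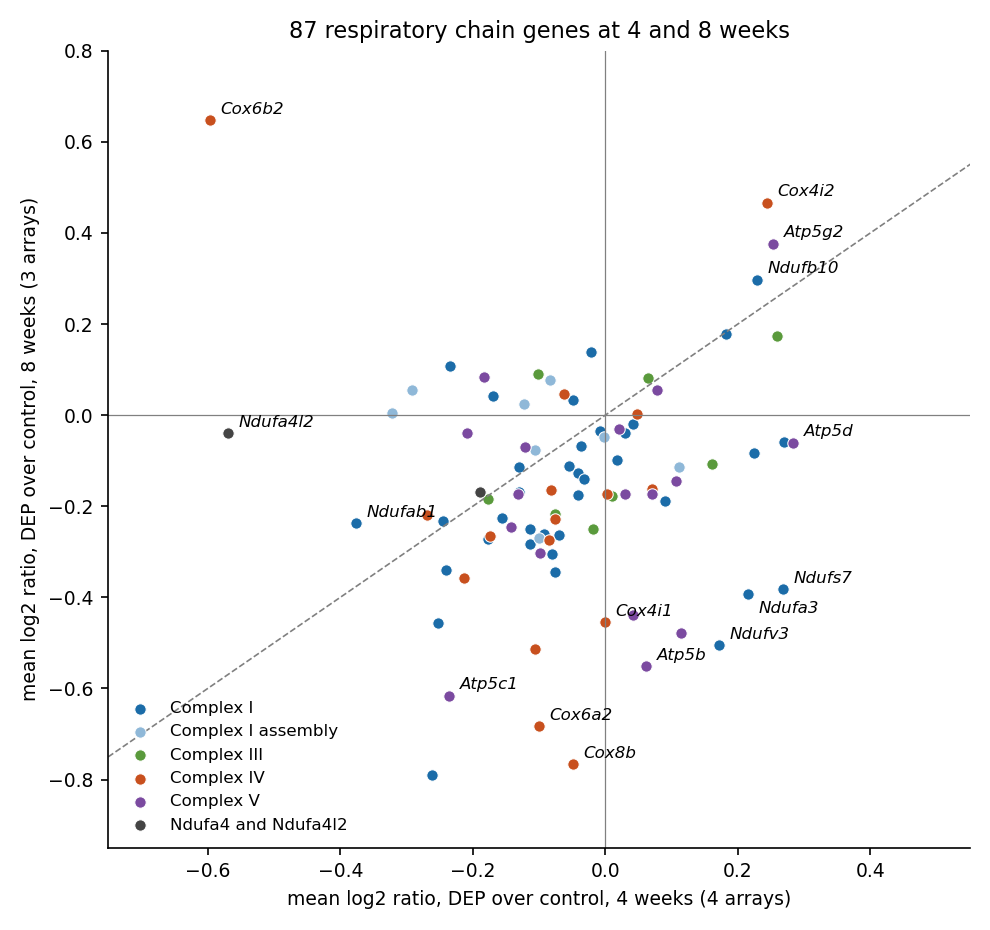
Mean log2 ratio at 8 weeks against that at 4 weeks for each tested member, coloured by complex, with the diagonal of equal values. Most members lie below the diagonal, *Cox8b*, *Ndufs7* and *Ndufv3* lie far below it, and *Ndufa4l2* lies above it.

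Complex I takes electrons from NADH. The counts by complex here and below stand beside those of all genes tested. Of these, 21.7% were called higher and 16.4% lower at 4 weeks, and 20.4% and 16.9% at 8 weeks. Of the 36 tested subunits of complex I, 5 were higher and 6 lower at 4 weeks (13.9% and 16.7%). At 8 weeks 1 was higher and 17 were lower (2.78% and 47.2%, median -0.17). The 5 higher at 4 weeks were *Ndufs7*, *Ndufa3*, *Ndufa9*, *Ndufb7* and *Ndufb10*. The lower calls at 8 weeks covered 5 of the 7 core subunits, the catalytic set, which holds the cofactors (median -0.25), and 12 of the 29 accessory subunits (median -0.13). Without replicate 2 of 8 weeks, 7 subunits of complex I were lower, in a fit that called 9.48% of all genes lower. At like brightness 19.8% were lower in that fit.

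Among the core subunits, *Ndufs7* carries the last iron-sulfur cluster before ubiquinone. Its log2 ratio was -0.02, 0.33, 0.45 and 0.31 on the 4-week arrays and -0.21, -0.41 and -0.53 on the 8-week arrays. Replicates 2 to 4 of 4 weeks lay above 0, replicate 1 lay at 0, and all 8-week arrays lay below it without overlap. The mean was 0.27 at 4 weeks (SE 0.08, limma, adjusted p = 0.0392) and -0.38 at 8 weeks (SE 0.10, adjusted p = 0.0182), and the difference of -0.65 passed with an adjusted p of 0.00817. The calls at the single times were lost when an array was left out: the adjusted p rose to 0.115, 0.132 and 0.11 at 4 weeks without replicate 2, 3 or 4 of that time (0.0657 without replicate 2 of 8 weeks), and to 0.0924 and 0.1 at 8 weeks without replicate 2 or 3.

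The promoter window of *Ndufs7* is shown because this core subunit changed sign between the times. It covers 250 bases before and 50 after the start in RefSeq (mouse build GRCm38.p6, chr10:80249199-80249498, plus strand), printed 5′ to 3′, and capitals mark TATAAA at position -99 and the letters of the YY1 motif at position 25, with the start at 1.
Ndufs7: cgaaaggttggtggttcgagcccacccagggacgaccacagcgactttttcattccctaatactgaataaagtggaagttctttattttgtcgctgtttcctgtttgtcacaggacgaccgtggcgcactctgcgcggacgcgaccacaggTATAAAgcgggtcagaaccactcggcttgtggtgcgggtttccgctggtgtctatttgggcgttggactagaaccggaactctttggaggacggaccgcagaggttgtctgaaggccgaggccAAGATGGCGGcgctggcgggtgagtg

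*Ndufv1*, which binds NADH, was lower at 8 weeks (-0.25, SE 0.05, adjusted p = 0.00957, but 0.0756 without replicate 2 of 8 weeks). The mean of *Ndufs1*, the largest iron-sulfur subunit, was -0.03 at 4 weeks and -0.14 at 8 weeks and passed at neither time.

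The accessory subunits held 4 of the 5 members of complex I that were higher at 4 weeks, besides the core subunit *Ndufs7*. They also held the 1 that was higher at 8 weeks. *Ndufb10*, a subunit of the proton-pumping membrane arm, read 0.34, 0.23, 0.14 and 0.21 at 4 weeks and 0.29, 0.27 and 0.33 at 8 weeks. All 7 arrays were above 0 and the times overlapped, with means of 0.23 (adjusted p = 0.00767) and 0.30 (adjusted p = 0.00456). These calls depended on the processing. The 8-week call was lost with the processed signals (0.13, limma, adjusted p = 0.11) and with median centring (0.10, adjusted p = 0.291). Median centring also removed the 4-week call (0.15, adjusted p = 0.0763). *Ndufb7*, another membrane-arm subunit, was higher at 4 weeks (0.42, 0.23, 0.21 and 0.22, mean 0.27, adjusted p = 0.0176) and read 0.08, 0.01 and -0.27 at 8 weeks. Its 4-week call was lost without replicate 1 of that time (adjusted p = 0.0544), and the difference of -0.33 (adjusted p = 0.0477) was lost when any single array other than replicate 1 of 8 weeks was left out (adjusted p = 0.071 to 0.124). *Ndufb8*, often used as a protein marker of complex I, stayed within -0.08 and 0.04 on all 7 arrays and passed at neither time.

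*Ndufa3* and *Ndufv3* moved from above to below control. *Ndufa3*, a membrane-arm subunit, read 0.25, 0.23, 0.15 and 0.24 at 4 weeks and -0.21, -0.35 and -0.62 at 8 weeks. The groups were separated on either side of 0, with a mean of 0.22 at 4 weeks (adjusted p = 0.0374, but 0.0626 to 0.104 without any single 4-week array or without replicate 2 of 8 weeks), of -0.39 at 8 weeks (adjusted p = 0.00619) and a difference of -0.61 (adjusted p = 0.0041). *Ndufv3*, a small subunit of the NADH-binding module, read -0.19, 0.26, 0.29 and 0.33 at 4 weeks and -0.61, -0.47 and -0.43 at 8 weeks. Only replicate 1 of 4 weeks was below 0 at that time, and the 4-week mean of 0.17 did not pass with it (adjusted p = 0.165) and did without it (0.29, adjusted p = 0.00712). At 8 weeks the mean of -0.51 passed (adjusted p = 0.00716), as did the difference of -0.68 (adjusted p = 0.00864).

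*Ndufab1*, the mitochondrial acyl carrier protein, which serves fatty acid synthesis as well as complex I, ran the other way between the times. It read -0.28, -0.45, -0.47 and -0.30 at 4 weeks and -0.18, -0.27 and -0.25 at 8 weeks. All arrays lay below 0, and those of 4 weeks lay lower than those of 8 weeks. The mean was -0.38 at 4 weeks (adjusted p = 0.0012) and -0.24 at 8 weeks (adjusted p = 0.0167, but 0.098 and 0.0646 without replicate 2 or 3 of 8 weeks), and the difference of 0.14 did not pass (adjusted p = 0.215). *Ndufa5* had the same mean of 0.18 at both times and *Ndufa1* had -0.23 and 0.11, and neither passed at either time. The call for *Ndufa1* depended on 1 array: its 4-week mean passed without replicate 3 of 8 weeks (adjusted p = 0.0464) and its difference without replicate 1 of 8 weeks (0.52, adjusted p = 0.0333).

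Of the 8 complex I assembly factors, each taken by its brightest probe, 1 was lower at each time and none was higher. The lower factor at 4 weeks was *Ndufaf2*, which read -0.32, -0.42, -0.29 and -0.26 (mean -0.32, adjusted p = 0.0107), and at 8 weeks -0.15, -0.10 and 0.26. The arrays of the 2 times did not overlap, and the difference of 0.33 (adjusted p = 0.0573) passed without replicate 1 of 8 weeks (0.40, adjusted p = 0.0441), without background correction (0.34, adjusted p = 0.0485) and when both channels had to be above background on all arrays (0.33, adjusted p = 0.0359). At 8 weeks *Ndufaf3*, named after its values were seen, was lower (-0.27, adjusted p = 0.0303). *Ndufaf4* had wide arrays by its brighter probe, from -0.48 to -0.03 at 4 weeks and from -0.33 to 0.45 at 8 weeks. That probe passed at neither time, but its 4-week mean of -0.29 passed without replicate 1 or 3 of 8 weeks (adjusted p = 0.0499 and 0.0491). The other probe of *Ndufaf4* was called lower at both times, with means of -0.26 and -0.28.

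Complex III passes electrons from ubiquinol to cytochrome c. Of its 8 tested subunits, 1 was higher at 4 weeks and 1 was lower at 8 weeks. Their median at 8 weeks was -0.14, but -0.07 without replicate 3 of 8 weeks and -0.07 with the processed signals. The higher one, *Uqcrh*, the hinge protein at the cytochrome c1 docking site, read 0.27, 0.14, 0.27 and 0.35 at 4 weeks and 0.12, 0.14 and 0.26 at 8 weeks, with means of 0.26 (adjusted p = 0.00607) and 0.17 (adjusted p = 0.0501). All 7 arrays were above 0. The lower one, *Uqcr10*, a small membrane subunit named after its values were seen, read -0.05, -0.00, -0.04 and 0.01 at 4 weeks and -0.26, -0.26 and -0.23 at 8 weeks, where the mean was -0.25 (adjusted p = 0.00473) and the difference -0.23 (adjusted p = 0.0255).

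The core protein *Uqcrc1* and the Rieske iron-sulfur protein *Uqcrfs1* passed at neither time. *Uqcrc1* read -0.20, 0.28, 0.30 and 0.26 at 4 weeks and 0.08, -0.20 and -0.20 at 8 weeks. Replicate 1 of 4 weeks stood apart, and without it the 4-week mean was 0.28 (adjusted p = 0.0201) and the difference -0.39 (adjusted p = 0.023). *Uqcrfs1* had a mean of -0.18 at both times, and its 4-week mean passed without replicate 1 of 8 weeks (adjusted p = 0.0342).

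Complex IV, cytochrome c oxidase, reduces oxygen to water, and several of its subunits exist as a widespread form and a form restricted to some tissues. Of its 16 tested genes, 1 was higher (*Cox4i2*) and 3 were lower (*Cox6a1*, *Cox6b1* and *Cox6c*) at 4 weeks, and 1 was higher and 9 were lower at 8 weeks (median -0.22). Of the 10 widespread subunits, 6 were lower at 8 weeks (median -0.25) and none was higher. Of the 5 tested tissue-restricted isoforms, 2 were lower and 1 was higher at 8 weeks. Without replicate 2 of 8 weeks, 5 genes of complex IV were lower and 1 was higher. In that fit 9.48% of all genes were lower (19.8% at like brightness) and 12.1% higher.

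The largest fall among these isoforms was that of *Cox8b*, the heart and skeletal muscle form of subunit VIII, which is also expressed in brown fat. Its log2 ratio was 0.04, -0.03, -0.07 and -0.13 on the 4-week arrays and -0.61, -0.67 and -1.02 on the 8-week arrays. The 4-week arrays lay at 0 and the 8-week arrays were all well below them. The mean at 8 weeks was -0.77 (SE 0.08, 1.70-fold lower, adjusted p = 3.82e-04), the mean at 4 weeks -0.05 (adjusted p = 0.621), and the difference -0.72 (adjusted p = 0.0029). For the widespread form *Cox8a* the arrays read -0.10, 0.09, 0.11 and 0.18 at 4 weeks and -0.02, -0.16 and -0.30 at 8 weeks. They overlapped, and neither time passed (means 0.07 and -0.16, adjusted p = 0.419 and 0.133). The other probe of *Cox8a* was called higher at 4 weeks (0.18) and was not called at 8 weeks (-0.10). The difference for *Cox8a* of -0.23 did not pass (adjusted p = 0.118), but reached -0.29 with an adjusted p of 0.0469 without replicate 1 of 4 weeks. Whether *Cox8a* was called depended on the processing, since it was lower at 8 weeks with the processed signals (-0.30, adjusted p = 0.00674) and with median centring (-0.26, adjusted p = 0.044), and its difference passed with the processed signals (-0.32, adjusted p = 0.0161) and with the mean of its probes (-0.26, adjusted p = 0.0492).

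The promoter windows of this isoform pair are shown because the muscle form had the largest fall of complex IV. Both are printed 5′ to 3′ on the strand of the gene, which is the minus strand, from 250 bases before to 50 after the start (GRCm38.p6, chr7:140900397-140900696 for *Cox8b* and chr19:7217567-7217866 for *Cox8a*). Capitals mark the E-box CAGCTG at positions -19 and 17 and TATAAA at position 5 in *Cox8b*, and the ETS letters CCGGAAGT, read on the other strand, at positions -6 and 32 in *Cox8a*.
Cox8b: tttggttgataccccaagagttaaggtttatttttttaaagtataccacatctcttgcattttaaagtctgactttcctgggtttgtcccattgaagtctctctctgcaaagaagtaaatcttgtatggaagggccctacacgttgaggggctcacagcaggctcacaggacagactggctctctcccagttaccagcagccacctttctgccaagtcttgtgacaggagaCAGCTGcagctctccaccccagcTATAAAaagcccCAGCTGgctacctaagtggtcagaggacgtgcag
Cox8a: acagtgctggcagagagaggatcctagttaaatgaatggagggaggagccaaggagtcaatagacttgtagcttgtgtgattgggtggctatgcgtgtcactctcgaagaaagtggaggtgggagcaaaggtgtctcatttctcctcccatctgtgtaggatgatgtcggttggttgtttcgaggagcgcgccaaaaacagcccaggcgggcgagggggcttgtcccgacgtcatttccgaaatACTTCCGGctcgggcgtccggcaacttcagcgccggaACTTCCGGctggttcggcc
The *Cox8b* window holds the E-box letters, known from muscle regulatory factors, and no ETS, NRF1 or YY1 letters. The *Cox8a* window holds ETS letters and no E-box.

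*Cox6a2*, the heart and muscle form of subunit VIa, was also lower at 8 weeks. It read -0.12, -0.07, -0.09 and -0.12 at 4 weeks and -0.51, -0.59 and -0.95 at 8 weeks. The times did not overlap, and replicate 3 of 8 weeks was lowest, as it was for *Cox8b*. The mean at 8 weeks was -0.68 (SE 0.08, 1.61-fold lower, adjusted p = 6.72e-04), with a difference of -0.58 (adjusted p = 0.00697). The widespread *Cox6a1* read -0.23, -0.09, -0.14 and -0.23 at 4 weeks and -0.32, -0.17 and -0.31 at 8 weeks, all below 0. Its means of -0.17 (adjusted p = 0.0277, but 0.066, 0.0633 and 0.101 without replicate 1, 3 or 4 of 4 weeks) and -0.26 (adjusted p = 0.00932) both passed, and its difference of -0.09 did not (adjusted p = 0.4).

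The muscle form of subunit VIIa, *Cox7a1*, did not pass at either time. It read 0.07, -0.18, -0.17 and -0.05 at 4 weeks and -0.16, -0.13 and -0.20 at 8 weeks, with overlapping times. The 8-week mean was -0.16 (adjusted p = 0.0761, and 0.034 without replicate 1 of 4 weeks). The widespread *Cox7a2* had -0.08 at 4 weeks and -0.23 at 8 weeks (adjusted p = 0.0358), and the related supercomplex factor *Cox7a2l*, which helps to join complexes III and IV, had 0.00 and -0.17 (adjusted p = 0.0449). These 8-week calls rested on single arrays: they were lost without replicate 1 or 2 of 8 weeks (adjusted p = 0.17 and 0.15 for *Cox7a2*, 0.157 and 0.141 for *Cox7a2l*), for *Cox7a2l* also without replicate 3 (adjusted p = 0.0915), and without some of the 4-week arrays (adjusted p = 0.051 to 0.0547 without replicate 2, 3 or 4 for *Cox7a2*, and 0.0728 and 0.062 without replicate 2 or 4 for *Cox7a2l*). The other probes of *Cox7a2l* were called lower at 8 weeks as well. At 4 weeks its probes differed, with means from -0.23 to 0.00 and at least 1 of the other probes called lower.

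The isoforms of subunit IV were called in opposite directions at 8 weeks. *Cox4i1*, the widespread form, read -0.02, -0.05, 0.02 and 0.04 at 4 weeks and -0.31, -0.43 and -0.63 at 8 weeks. The 4-week arrays lay at 0 and all 8-week arrays below them, with a mean of -0.46 at 8 weeks (SE 0.07, adjusted p = 0.00168) and a difference of -0.45 (adjusted p = 0.00784). *Cox4i2*, the form known from lung and other tissues under low oxygen, read 0.20, 0.18, 0.43 and 0.17 at 4 weeks and 0.60, 0.40 and 0.40 at 8 weeks. All 7 arrays were above 0, and replicate 3 of 4 weeks lay within the 8-week range. The means were 0.24 (adjusted p = 0.0177, but 0.0649 without replicate 3 of 4 weeks) and 0.47 (SE 0.07, adjusted p = 0.00197), and the difference of 0.22 did not pass (adjusted p = 0.115).

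**Figure D3:**
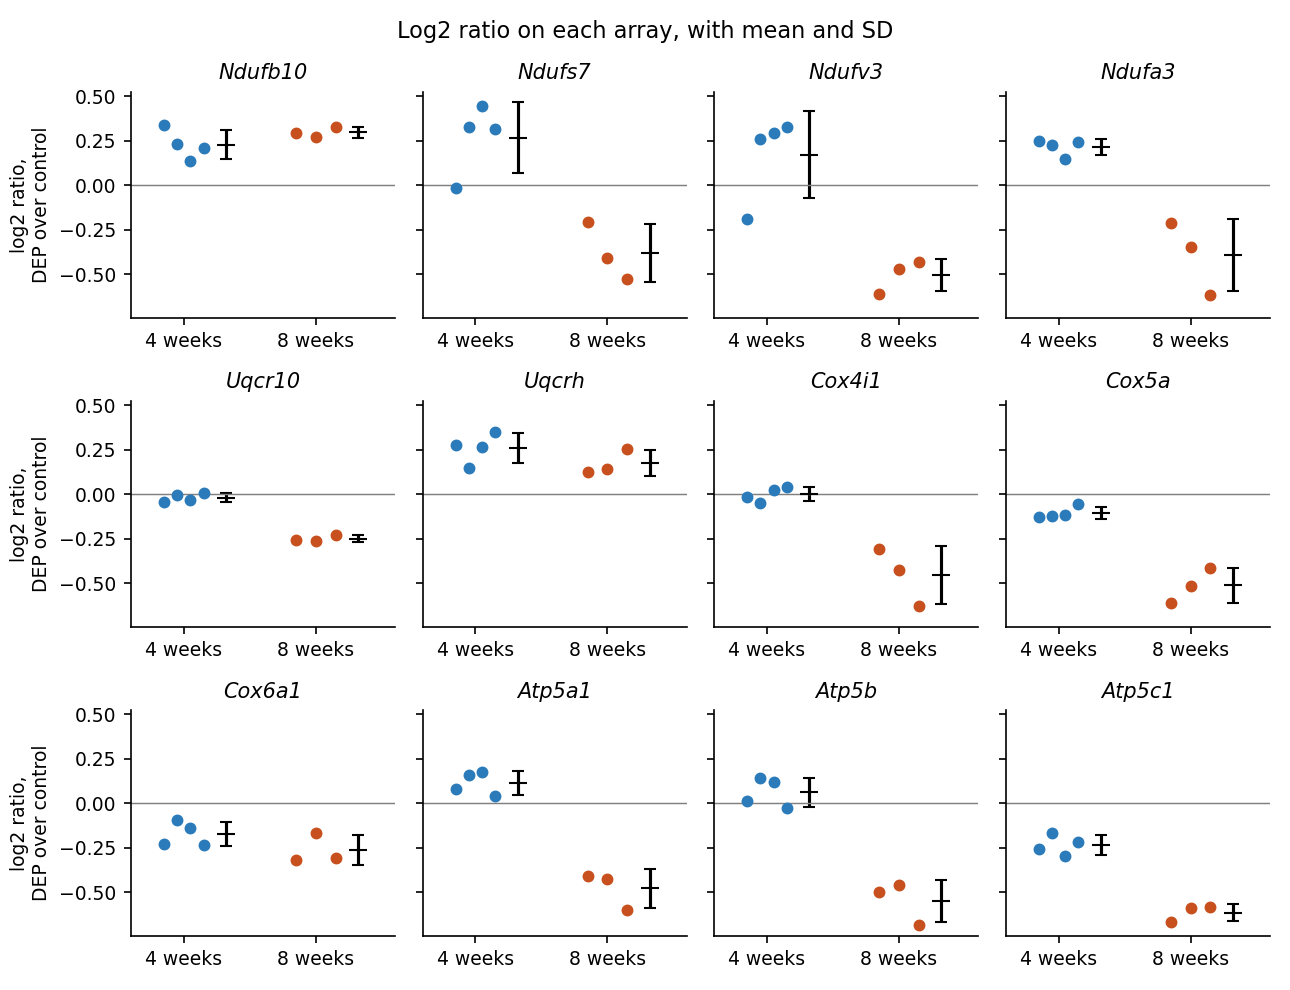
Log2 ratio of DEP over control on each array for chosen members, with 4 points for 4 weeks, 3 points for 8 weeks and bars for the mean and SD. For *Ndufs7*, *Cox4i1*, *Cox5a*, *Atp5a1* and *Atp5b* every 8-week point lies below every 4-week point, whereas the times overlap for *Ndufb10*, *Uqcrh* and *Cox6a1*.

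*Cox5a*, a matrix-side subunit with no isoform among the members, read -0.13, -0.12, -0.12 and -0.06 at 4 weeks and -0.61, -0.52 and -0.41 at 8 weeks. The 8-week mean was -0.51 (SE 0.05, adjusted p = 3.32e-04) and the difference -0.41 (adjusted p = 0.00537), with no overlap between the times. *Cox6b1*, which joins the oxidase dimer on the intermembrane side, was called lower at both times, with -0.21 (adjusted p = 0.046) and -0.36 (adjusted p = 0.0113). Its 4-week call was lost without any single 4-week array and without replicate 2 or 3 of 8 weeks (adjusted p = 0.0633 to 0.113), and its 8-week call without replicate 2 or 3 of 8 weeks (0.0811 and 0.0559). *Cox6b2*, the form known from testis, passed at neither time, with 0.21, 0.16, -2.91 and 0.15 at 4 weeks and 0.97, 0.79 and 0.19 at 8 weeks. Its replicate 3 of 4 weeks rested on a single control spot with a signal of 2508, where the other 4-week arrays gave 262.5 to 298. Without that array the 8-week mean of 0.65 passed (adjusted p = 0.00946). *Cox7b*, a small widespread subunit, had means of 0.05 and 0.00 and passed at neither time.

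The pair of *Ndufa4*, first assigned to complex I and later found in complex IV, and its relative *Ndufa4l2*, known as a target of hypoxia-inducible factor that lowers oxygen use, was kept apart from both complexes. *Ndufa4l2* read -0.45, -0.58, -0.68 and -0.57 at 4 weeks and 0.01, 0.07 and -0.19 at 8 weeks. The 4-week arrays all lay far below 0 and the 8-week arrays lay around it. The mean at 4 weeks was -0.57 (SE 0.06, 1.48-fold lower, adjusted p = 3.44e-04), that at 8 weeks -0.04 (adjusted p = 0.706), and the difference 0.53 (adjusted p = 0.00447), the only member called higher at 8 than at 4 weeks in this fit. It was one of the dim members, with a mean log2 signal of 7.94 in control and 7.37 in DEP at 4 weeks and of 7.85 and 7.81 at 8 weeks, and the offset of 50 added before the log shrinks ratios of dim probes. *Ndufa4* had means of -0.19 and -0.17 with wide arrays (-0.55 to 0.17 at 8 weeks) and passed at neither time.

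Complex V, ATP synthase, has a catalytic F1 head and a membrane part with its stalks. Of its 17 tested genes, 2 were higher (*Atp5d* and, by its brighter probe, *Atp5g2*) and 2 lower (*Atp5c1* and *Atp5e*) at 4 weeks (median 0.03, but -0.04 with median centring), and 1 was higher (*Atp5g2* by its brighter probe, with its other probe lower) and 4 were lower (*Atp5a1*, *Atp5b*, *Atp5c1* and *Atp5g1*) at 8 weeks (median -0.17). The difference between the times was lower for 6 (35.3%), where 16.1% of all genes and 27% at like brightness were called lower. In the F1 head, 3 of 5 subunits were lower at 8 weeks (median -0.48) and 4 of 5 lower at 8 than at 4 weeks. Without replicate 2 of 8 weeks, 3 genes of complex V were lower and none was higher. In that fit 9.48% of all genes were lower (19.8% at like brightness) and 12.1% higher. Without replicate 1 of 4 weeks 8 genes of complex V were lower, with 18.9% of all genes and 30.3% at like brightness.

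*Atp5a1* and *Atp5b* encode the alpha and beta subunits, which form the catalytic sites. *Atp5a1* read 0.08, 0.16, 0.17 and 0.04 at 4 weeks and -0.41, -0.43 and -0.60 at 8 weeks, so that all 4-week arrays were above 0 and all 8-week arrays below. Its mean at 8 weeks was -0.48 (SE 0.06, adjusted p = 7.4e-04) and its difference -0.59 (adjusted p = 0.0015). *Atp5b* read 0.01, 0.14, 0.12 and -0.03 at 4 weeks and -0.50, -0.46 and -0.69 at 8 weeks. It showed the same separation, with a mean of -0.55 at 8 weeks (SE 0.06, adjusted p = 5.37e-04) and a difference of -0.61 (adjusted p = 0.00184). Neither gene passed at 4 weeks (adjusted p = 0.123 and 0.413).

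*Atp5c1*, the gamma subunit that turns inside the head, was lower at both times. It read -0.26, -0.17, -0.30 and -0.22 at 4 weeks and -0.67, -0.59 and -0.59 at 8 weeks. All arrays were below 0 and the times did not overlap. The means were -0.24 (adjusted p = 0.00526) and -0.62 (SE 0.05, 1.53-fold lower, adjusted p = 9.18e-05), with a difference of -0.38 (adjusted p = 0.00539). Its other probe gave -0.34 and -0.38 with a difference of -0.03 (adjusted p = 0.818), so the fall between the times rests on the brighter probe. *Atp5d*, the delta subunit of the head, was higher at 4 weeks (0.17, 0.33, 0.30 and 0.33, mean 0.28, adjusted p = 0.00567) and read 0.07, -0.15 and -0.11 at 8 weeks. Its difference of -0.34 (adjusted p = 0.0181) was lost without replicate 2 or 3 of 8 weeks (adjusted p = 0.0785 and 0.0579).

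The genes *Atp5g1*, *Atp5g2* and *Atp5g3* encode the same mature c subunit of the proton-driven ring with different import sequences. *Atp5g1* read -0.23, 0.13, 0.18 and 0.09 at 4 weeks and -0.27, -0.48 and -0.57 at 8 weeks, with a mean of -0.44 at 8 weeks (adjusted p = 0.00811) and a difference of -0.48 (adjusted p = 0.0213). The 8-week call was lost without replicate 2 or 3 of 8 weeks (adjusted p = 0.054 and 0.0511) and the difference without those or replicate 2 of 4 weeks (adjusted p = 0.0782, 0.0753 and 0.0519). *Atp5g2* gave opposite answers from its probes. The brighter probe read 0.36, 0.27, 0.30 and 0.09 at 4 weeks and 0.62, 0.41 and 0.10 at 8 weeks (means 0.25 and 0.38, adjusted p = 0.0499 and 0.0201), whereas the other had means of -0.06 and -0.25 (adjusted p = 0.0196 at 8 weeks). The 4-week call of the brighter probe was lost without any single 4-week array or replicate 2 of 8 weeks (adjusted p = 0.0522 to 0.136), and the 8-week call without replicate 1 or 2 of 8 weeks (adjusted p = 0.101 and 0.1). No direction is given for *Atp5g2*. *Atp5g3* had means of 0.07 and -0.17 and passed at neither time, with a difference of -0.24 (adjusted p = 0.0737) that passed without replicate 4 of 4 weeks (-0.30, adjusted p = 0.0409). *Atp5g3* was called lower at 8 weeks with the processed signals (-0.31, limma, adjusted p = 0.0144) and with median centring (-0.31, adjusted p = 0.015). Its difference also passed with each of these (adjusted p = 0.024 and 0.0498).

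The intensities of each channel show what lay behind the ratios. In the control channel alone, 4 members were higher and 18 lower at 8 than at 4 weeks (4.6% and 20.7%, limma on log2 intensities after normalization between arrays), where 21.5% of all genes were called higher and 11.7% lower. The 4 were *Atp5a1*, *Atp5g2*, *Ndufaf8* and *Ndufv3*. The 18 fell to 9 and 10 without replicate 1 or 3 of 8 weeks, and the 4 rose to 7 without replicate 3 of 4 weeks. In this contrast age, slide and exposure time of the partner channel cannot be told apart. Of complex III, 4 of 8 members were lower in the control channel, none of which was called at 4 or 8 weeks in the ratio.

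The muscle isoforms were lower in control tissue at 8 weeks too. For *Cox8b*, the mean log2 control signal went from 13.57 at 4 weeks to 13.01 at 8 weeks (-0.56, adjusted p = 0.00138), and that of DEP tissue from 13.52 to 12.24. For *Cox6a2*, the control signal went from 13.91 to 13.31 (-0.59, adjusted p = 0.00444) and the DEP signal from 13.81 to 12.63. For *Cox7a1*, the control signal went from 13.86 to 13.17 (-0.69, adjusted p = 1.04e-04) and the DEP signal from 13.78 to 13.01, which is a like fall in both channels. For *Atp5a1* the control signal rose (0.22, adjusted p = 0.0138), and for *Cox4i1* the difference was -0.11 and did not pass.

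**Figure D4:**
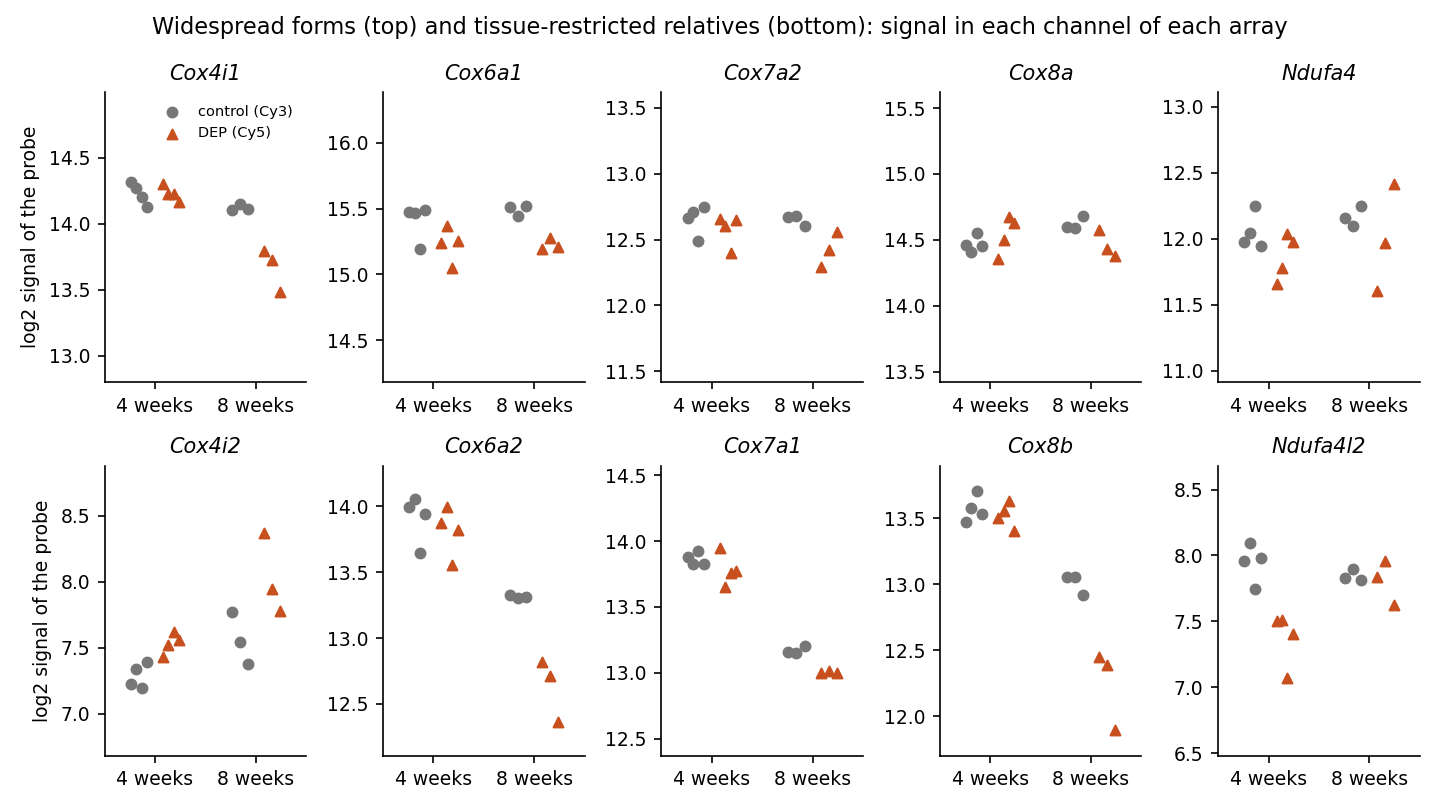
Normalized log2 intensity of the control and the DEP channel on each array for isoforms of complex IV and for the *Ndufa4* pair, at 4 and at 8 weeks, with each panel on its own axis of equal span. For *Cox8b* and *Cox6a2* both channels are lower at 8 weeks and the DEP channel lies below the control channel there, whereas for *Cox7a1* the channels lie close together at both times.

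Marker genes of several cell types moved at the same times as the members. For comparison, 21.7% of all genes tested were called higher and 16.4% lower at 4 weeks, and 20.4% and 16.9% at 8 weeks. Bulk arrays cannot tell fewer cells of a type from less RNA per cell. Of 9 mature olfactory neuron markers, 7 were higher and none lower at 4 weeks (median 0.44, array medians 0.33 to 0.58), and none was higher and 8 were lower at 8 weeks (median -0.62, array medians -0.65 to -0.54). Of 12 fast muscle markers, 4 were higher and 2 lower at 4 weeks (median 0.15), and 1 was higher and 6 were lower at 8 weeks (median -0.33), among them muscle creatine kinase *Ckm* (-1.32) and skeletal actin *Acta1* (-0.95), while the fast myosin *Myh4* was higher (0.82). In the control channel, 10 of the 12 muscle markers were lower at 8 than at 4 weeks, and 8 of the 9 olfactory markers were higher. Of all genes, 11.7% were lower and 21.5% higher there. All 5 erythroid markers were lower at 8 weeks (median -0.77). The part of these cell types in the values of the members was not tested.

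**Figure D5:**
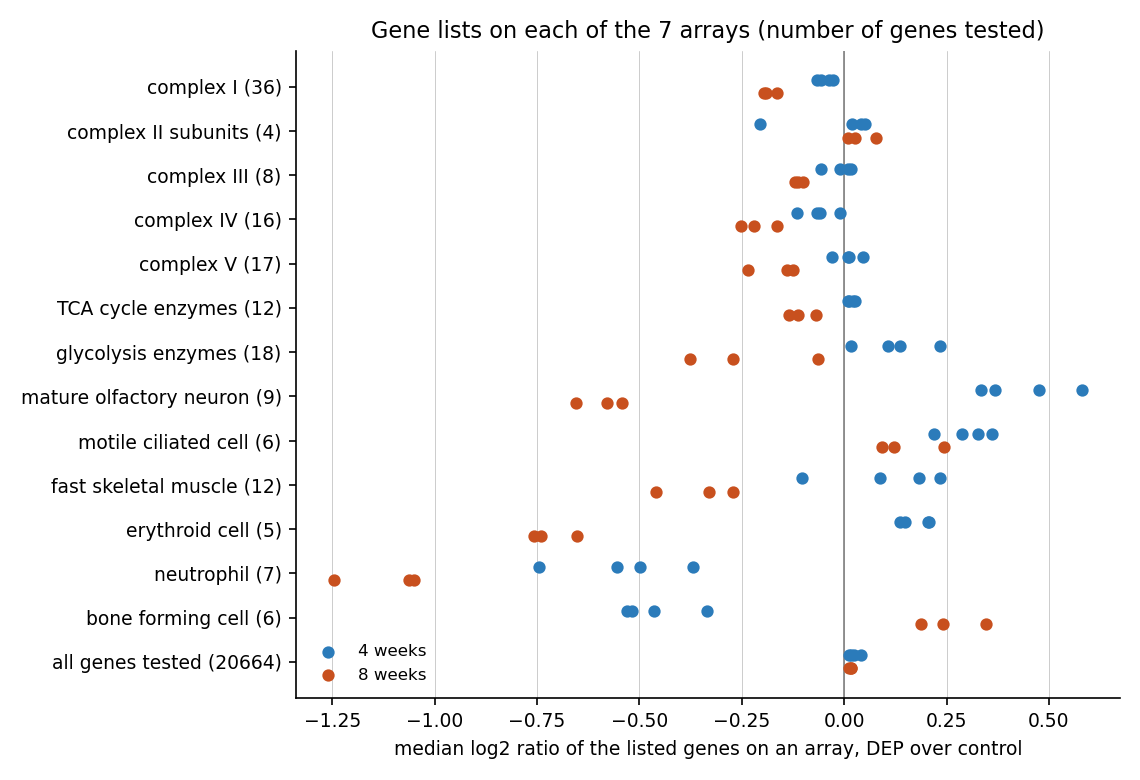
Median log2 ratio of DEP over control on each array for the members of each complex, for related metabolic lists and for cell type markers. Complexes I, III, IV and V lie close to 0 at 4 weeks and below it at 8 weeks, and the olfactory neuron markers lie above 0 at 4 weeks and below it at 8 weeks.

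Genes next to the respiratory chain, from lists chosen by function, gave the following. Over all genes tested the shares were 21.7% higher and 16.4% lower at 4 weeks, and 20.4% and 16.9% at 8 weeks. No list was tested against these shares. Complex II, which feeds electrons from succinate, had 1 of 4 subunits lower at 4 weeks (*Sdhd*, -0.19) and none called at 8 weeks (median 0.05). Cytochrome c (*Cycs*), the carrier between complexes III and IV, was lower at 4 weeks (-0.39, adjusted p = 0.00456), and cytochrome c1 (*Cyc1*), the subunit of complex III that the symbol rule left out, at 8 weeks (-0.40, adjusted p = 0.00522). Of 12 citric acid cycle genes, 2 were higher and 1 lower at 4 weeks (16.7% and 8.33%), and 1 was higher and 4 were lower at 8 weeks (8.33% and 33.3%). Of 18 glycolysis genes, 8 were higher and 2 lower at 4 weeks (44.4% and 11.1%, median 0.06). At 8 weeks 3 were higher and 10 lower (16.7% and 55.6%, median -0.28). Of 11 genes of mitochondrial biogenesis, 4 were higher and 2 lower at 8 weeks (36.4% and 18.2%). The coactivator *Pprc1* was at 0.51 and the nuclear receptor *Esrra*, which drives many respiratory chain genes, at -0.50. Of the inhibitor of ATP synthase and the uncoupling proteins, 2 of 3 were lower at 8 weeks (*Ucp3* at -0.62 and *Atpif1* at -0.21).

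Promoter windows were searched for letters that the rule did not use. No motif searched stood in more than 8 of the members. RefSeq windows of 300 bases (250 before and 50 after the start, mouse build GRCm38.p6) were at hand for 73 of the 89 members, and 16 had none, among them *Cox6a2*, *Cox4i1*, *Cox4i2*, *Atp5a1* and *Ndufa4l2*. Letters were searched on both strands. The palindromic motif of the nuclear respiratory factor NRF1 stood in 7 members (9.59%) against 1.07% of 27025 genes. The YY1 motif, whose letters are in capitals at the end of the *Ndufs7* window, stood in 6 members (8.22%, all genes 0.995%), CCGGAAGT of the ETS family in 5 (6.85%, all genes 4.31%) and CAAGGTCA of the estrogen-related receptors in 3 (4.11%, all genes 1.76%). The E-box CAGCTG stood in 6 members (8.22%, all genes 18.3%) and TATAAA in 8 (11%, all genes 15.7%). Of the 27 members with a window that were lower at 8 weeks, 2 held the NRF1 letters, 2 those of YY1, 1 those of ETS and none those of the estrogen-related receptors, against 5, 4, 4 and 3 of the 46 other members. These matches describe letters in a window and say nothing of binding. The window of *Cox7a1* holds none of the motifs searched, and those of *Cox8b*, *Cox8a* and *Ndufs7* are printed above. Many respiratory chain genes have processed pseudogenes, and binding of such copies to the probes was not tested.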

How the data were processed

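The members and all gene lists were chosen with earlier results of these data known. The authors deposited 1 file per array from Feature Extraction 10.10.1.1, which holds unnormalized intensity values (median signals and backgrounds). It also holds intensity values that the software had corrected for background and dye, and the log10 ratio that the authors deposited comes from these. The GeneSpring values named in the methods were not used here. Log2 ratios of Cy5 over Cy3 were computed with limma 3.58.1 in R 4.3.3 from the deposited median signals by normexp (offset 50, fitted without spots marked as background outliers) and loess within arrays, and signals per channel were quantile-normalized on average intensity. Of 39429 probes (43020 spots), 28330 were named through RefSeq (GRCm38.p6). A probe was tested if at least 3 of 7 arrays showed it well above background in one channel or the other (25162 probes). One limma model over all 7 arrays had a mean for each exposure time. P-values were two-sided and adjusted by Benjamini-Hochberg over all probes, and a gene was represented by its brightest tested probe. Calls were made at an adjusted p of at most 0.05. They measure the spread between these arrays, whose number limits the precision.

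Genes named with values were, by rule, the 5 highest and 5 lowest members at each time and in the difference, the isoforms of complex IV with their counterparts and a subunit or more of each complex used as reference, and others are named only to resolve small counts. For leave-one-out fits a pooled spread was used. Alternatives were other background corrections, centring, filters, processed signals, a replicate block and the t-test of the methods. Results for some genes are not reported here.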

Additional observations from a re-analysis of the deposited data

Results flagged for a closer look

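One array stood apart from the other 3 at 4 weeks in 6 of the 39 named members tested for it, where chance gives about 1 in 20. These were replicate 3 in *Cox4i2* (0.43) and *Cox6b2* (-2.91), replicate 4 in *Cox5a* (-0.056) and replicate 1 in *Ndufb7* (0.42), *Ndufv3* (-0.19) and *Uqcrc1* (-0.20). For *Cox6b2* the control spot of that array had a signal of 2508, against 262.5 to 298 on the other 4-week arrays, while its DEP spot read 299.

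The log2 ratio of DEP over control differed between 8 and 4 weeks in 18 members (limma, adjusted p up to 0.05). In complex V the differences were -0.59 for *Atp5a1*, -0.61 for *Atp5b*, -0.38 for *Atp5c1*, -0.34 for *Atp5d*, -0.48 for *Atp5g1* and -0.25 for *Atp5j2*. In complex IV they were -0.45 for *Cox4i1*, -0.41 for *Cox5a*, -0.58 for *Cox6a2* and -0.72 for *Cox8b*. In complex I they were -0.61 for *Ndufa3*, -0.31 for *Ndufa9*, -0.33 for *Ndufb7*, -0.28 for *Ndufs3*, -0.65 for *Ndufs7* and -0.68 for *Ndufv3*. In complex III the difference was -0.23 for *Uqcr10*, and *Ndufa4l2* was the only member with a positive one (0.53). Each time lay on a slide of its own, so these differences could be of either, which cannot be told apart.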

How the results depend on the processing

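Median centring in place of loess moved the median of all genes to -0.042 at 4 weeks, -0.105 at 8 weeks and -0.065 in the difference, with 21%, 33.3% and 21.3% of all genes lower. It gave a median of members of -0.14 at 4 weeks and -0.38 at 8 weeks, 1 higher and 23 lower members at 4 weeks, 1 higher and 69 lower at 8 weeks, 27 lower in the difference, and 7 higher and 9 lower in the control channel. It also turned *Ndufaf2* at 8 weeks from 0.01 to -0.25 (limma, adjusted p = 0.0268). The processed signals gave a median of -0.039 at 4 weeks (all genes 0.092) and 8 higher members in the control channel. For the difference, 0 members were higher with normexp fitted on all spots, 2 without background correction and 3 when both channels had to be above background on all arrays. No filter on dim probes left 11 lower in the control channel.

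The paired t-test of the methods with adjustment gave 4 higher and 10 lower at 4 weeks and 0 higher and 0 lower at 8 weeks (31 members at an unadjusted p under 0.05, and only 393 of all genes passed after adjustment), and the unpaired test gave 4 higher and 5 lower at 4 weeks and 1 higher and 25 lower at 8 weeks. Of the 20664 genes tested, 4668 passed the paired test at 4 weeks. The unpaired test passed 4367 genes at 4 weeks and 4816 at 8 weeks, in either direction. The rule of p at most 0.01 with a 2-fold change gave 0 members in every ratio comparison, where limma had 11 higher and 18 lower members at 4 weeks and 4 and 44 at 8 weeks at an unadjusted p under 0.05. Same-numbered arrays of the times did not deviate together (correlations of -0.007, -0.008 and 0.016), so the numbers pair nothing. A replicate block gave 6 lower members in the difference (6.9%, against 8.26% of all genes and 15.8% at like brightness) and 8 lower in the control channel.

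Leaving out each array in turn gave medians of -0.18 to -0.14 at 8 weeks. It gave 5 to 9 higher and 7 to 14 lower members at 4 weeks, 2 to 4 higher and 16 to 40 lower at 8 weeks, 1 to 3 higher and 10 to 20 lower in the difference, and 4 to 7 higher and 9 to 19 lower in the control channel. Of all genes, 16.2% to 22.1% were higher and 11.2% to 16.2% lower at 4 weeks in these fits. At 8 weeks 12.1% to 22.4% were higher and 9.48% to 18.9% lower. In the difference 8.78% to 16.3% were higher and 9.94% to 16.9% lower. Over the named members, 1755 values kept their call under the alternatives, 144 lost a call and 50 gained one. For 1 value the sign changed with a call in at least 1 of the fits. Values called in neither fit were counted as kept whatever their sign. The cause of these changes was not tested.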

Other observations

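Assembly factors outside the naming rule were called lower more often than higher, with no test of the list. Of 32 tested of 35 listed, 2 were higher and 11 lower at 4 weeks (6.25% and 34.4%, all genes 21.7% and 16.4%). At 8 weeks 3 were higher and 10 lower (9.38% and 31.2%, all genes 20.4% and 16.9%). *Bcs1l*, which inserts the Rieske protein into complex III, had the highest value at 8 weeks (1.03), and *Acad9*, a complex I assembly factor related to acyl-CoA dehydrogenases, the lowest (-0.64). At 4 weeks the copper chaperone *Cox11* was at -0.57 and the complex I factor *Timmdc1* at 0.58.

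Other cell type markers also differed from control. For comparison, 21.7% of all genes tested were called higher and 16.4% lower at 4 weeks, and 20.4% and 16.9% at 8 weeks. Of 7 neutrophil markers, 4 were lower and 1 higher at 4 weeks (median -0.73), and 5 were lower and 1 higher at 8 weeks (median -1.26). Of 6 markers of bone-forming cells, 4 were lower at 4 weeks (median -0.48) and 4 were higher at 8 weeks (median 0.25). Of 6 motile ciliated cell markers, 4 were higher at 4 weeks and 2 at 8 weeks, with none lower. Of 4 brown fat markers, 1 was higher and 3 were lower at 4 weeks (median -0.28), and 1 was higher and 2 were lower at 8 weeks, with *Cidea*, a lipid droplet protein, at -1.34.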
